A study of Mus musculus with 18 samples.

Results

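The TGF-beta and BMP signalling genes are a set of 40 genes for ligands, receptors, secreted antagonists, latency proteins, Smads and direct targets of the pathway, chosen by name. The choice was made with earlier results of these data known. A gene was measured here through the brightest probe set that carries its symbol alone. By this rule 38 of the 40 members were found among 18193 genes, and Bmp3 and Gdf15 were not analysed here. TGF-beta, activin and BMP ligands bind pairs of serine/threonine kinase receptors. TGF-beta and activin receptors mainly phosphorylate Smad2 and Smad3, and BMP receptors mainly Smad1, Smad5 and Smad9. Either group enters the nucleus with Smad4, while Smad6 and Smad7 inhibit the receptors. In the lung BMP4 guides branching of the embryonic airways, BMP receptor 2 signalling maintains the pulmonary vessels, and TGF-beta drives matrix production by fibroblasts.

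The mice were B6C3F1/N, a cross of inbred strains common in chronic inhalation bioassays. Control lung came from vehicle controls, the spontaneous tumors are labelled as such, and the treated tumors came from mice exposed to antimony trioxide, a metalloid oxide, as an aerosol. Exposure began at 5 to 6 weeks of age and ran at 3, 10 or 30 mg per cubic metre, against 0 in controls, on 5 days of each week. A daily session lasted 6 hours plus 12 minutes, and exposure went on for at most 105 weeks. The labels do not give a sample's animal, sex, age at collection or exposure level, nor whether the mice with spontaneous tumors belonged to the unexposed group. The tumors were dissected from frozen lung of mice with intact host tissue, so each sample can hold vessels, connective tissue and immune cells beside tumor cells. Each group had 6 arrays. Control 5, spontaneous 5 and spontaneous 6 were left out as poor arrays, which left 5 control, 4 spontaneous and 6 treated arrays. Their median correlation with the other arrays over all probe sets was 0.301 to 0.476, against 0.920 to 0.973 for the 15 arrays used. Nothing in the labels says that the replicates of a group come from separate mice, so p-values measure only the spread between these samples.

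Levels are log2 values, and a log2 fold change is given as tumor minus control with its standard error, followed, where a gene is described singly by its main probe set, in square brackets by the value over all 18 arrays. A gene rose or fell where limma's p, adjusted over all 18193 genes, was under 0.05 in the 15 arrays. The array gives no detection call, and 11 members lay below the median level of all genes, among them Bmp2, Gdf10, Bmpr1b, Grem1, Fst and Smad6. Over all genes the log2 fold change had a median of 0.12 in spontaneous and 0.089 in treated tumors.

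In both kinds of tumor the pathway's genes moved in opposing directions. The ligands Bmp6 and Gdf10, the latency protein Ltbp1, the receptors Bmpr2, Bmpr1b and Tgfbr3 and the inhibitory Smad6 fell, and the ligands Bmp2, Bmp4 and Inhbb, the receptor Tgfbr1 and the decoy receptor Bambi rose. In spontaneous tumors 22 of 38 members were called by limma, or 57.9%, where 33.0% of all genes were called. Of these, 9 rose and 13 fell, which is 23.7% and 34.2% of the members, against 20.1% and 12.9% of all genes. In treated tumors 22 members were called as well, again 57.9%, where 38.8% of all genes were called. There 12 rose and 10 fell, or 31.6% and 26.3% of the members against 23.8% and 15.0% of all genes. Members, gene lists and the arrays left out were chosen with earlier results of these data known. The shares here and below therefore describe the lists and are no test of them. The median log2 fold change of the 38 members was 0.0065 in spontaneous and 0.073 in treated tumors. Both comparisons use the same control arrays. In all 26 members were called in at least 1 comparison and 18 in both, 8 of them higher and 10 lower. The matching shares of all genes were not computed. Over all 18 arrays limma called 5 members in spontaneous tumors (Bmp6, Gdf10, Tgfbr3, Bmpr1b and Smad6, all lower), where 4.16% of all genes were called. In treated tumors it called 7 over 18 arrays (Bmp6, Gdf10, Bmpr1b and Smad6 lower, Bmp2, Tgfbr1 and Grem1 higher), where 7.42% of all genes were called.

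**Figure D1:**
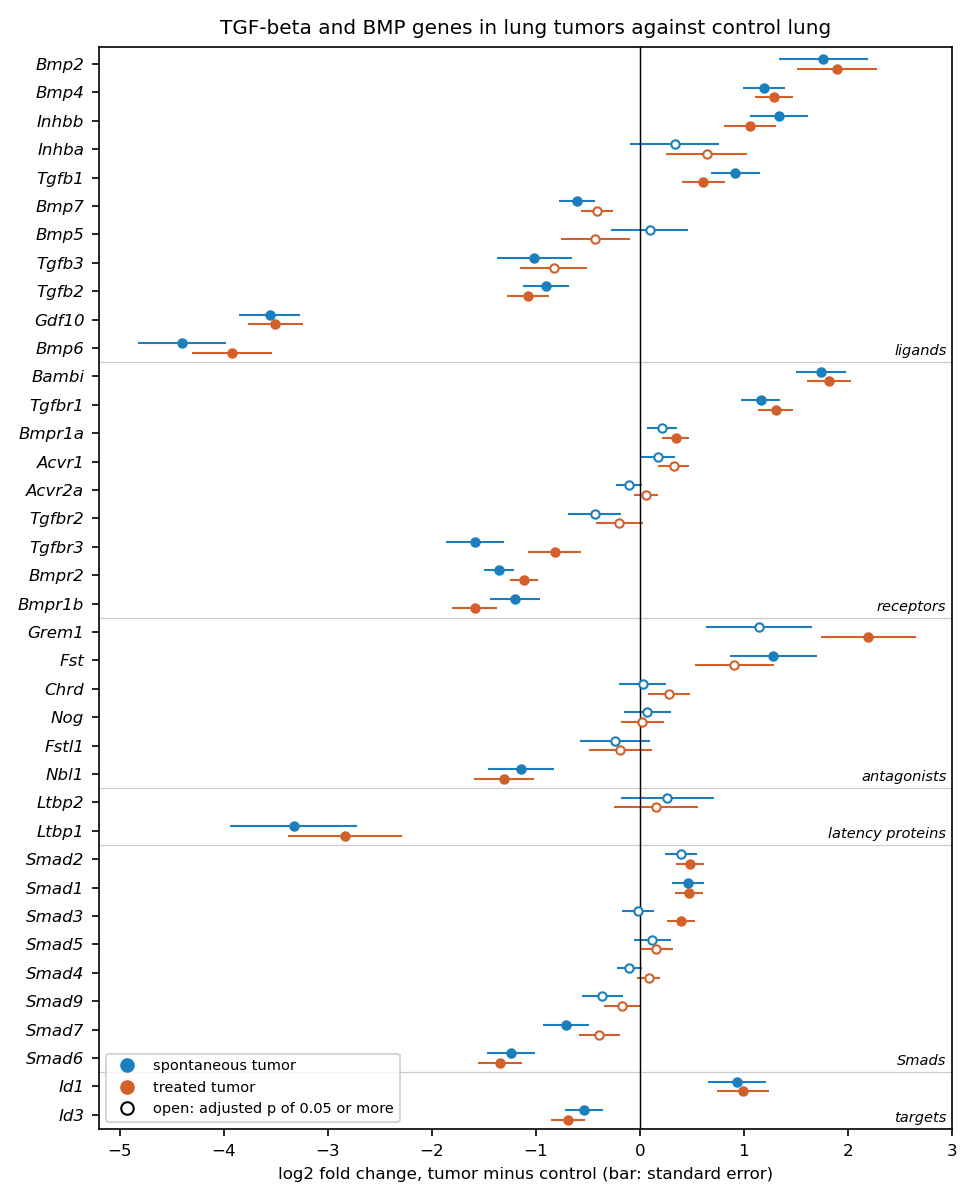
Log2 fold change of the 38 members in spontaneous (blue) and treated (orange) tumors against control lung, with the standard error as the bar, grouped by role. Filled points have a limma adjusted p under 0.05; Bmp6, Gdf10 and Ltbp1 lie farthest to the left and Bmp2, Bambi and Grem1 farthest to the right.

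Cell type markers moved in the same comparisons. Endothelial markers fell for 7 of 8 genes in spontaneous and 8 of 8 in treated tumors, and their mean level per array was 11.06 to 11.68 in control lung, 8.38 to 9.43 in spontaneous and 8.24 to 9.46 in treated tumors. Fibroblast markers fell for 5 of 8 genes in each comparison, from 10.34 to 11.37 in control lung to 7.64 to 8.96 and 7.49 to 9.16. Smooth muscle markers fell for 6 of 6 genes in each comparison, from 9.28 to 10.87 to 7.50 to 8.18 and 7.23 to 8.03. Neither of the 2 tumor groups overlapped control lung in these 3 mean levels. Of 7 alveolar type 2 markers 6 rose in each comparison, and Epcam and Nkx2-1, markers of epithelium and of the lung epithelial lineage, rose in both. The mean level of the type 2 list was 12.07 to 12.86 in control lung, 13.42 to 13.57 in spontaneous and 13.30 to 13.42 in treated tumors. Of 6 ciliated cell markers all fell in both comparisons. Alveolar type 1 markers fell for 4 of 6 genes in spontaneous and 3 of 6 in treated tumors. Of 5 club cell markers 1 rose and 2 fell in spontaneous tumors, and 1 rose and 4 fell in treated tumors. The mean levels of the ciliated, alveolar type 1, club, mesothelial and cardiac muscle lists were also below all controls in both tumor groups. In such whole-tissue RNA, fewer cells of a type and less RNA per cell cannot be told apart. The part of these cell types in the results below was not tested. The 3′ minus 5′ difference of the actin control probe sets, a sign of RNA quality, was -0.24 to -0.17 in control lung, -0.38 to -0.23 in spontaneous and -0.33 to -0.17 in treated tumors. With it as a covariate limma called 18 members in spontaneous tumors, without Tgfb3, Nbl1, Smad1 and Id3, and 23 in treated tumors. The share of all genes called with this covariate was not computed.

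**Figure D2:**
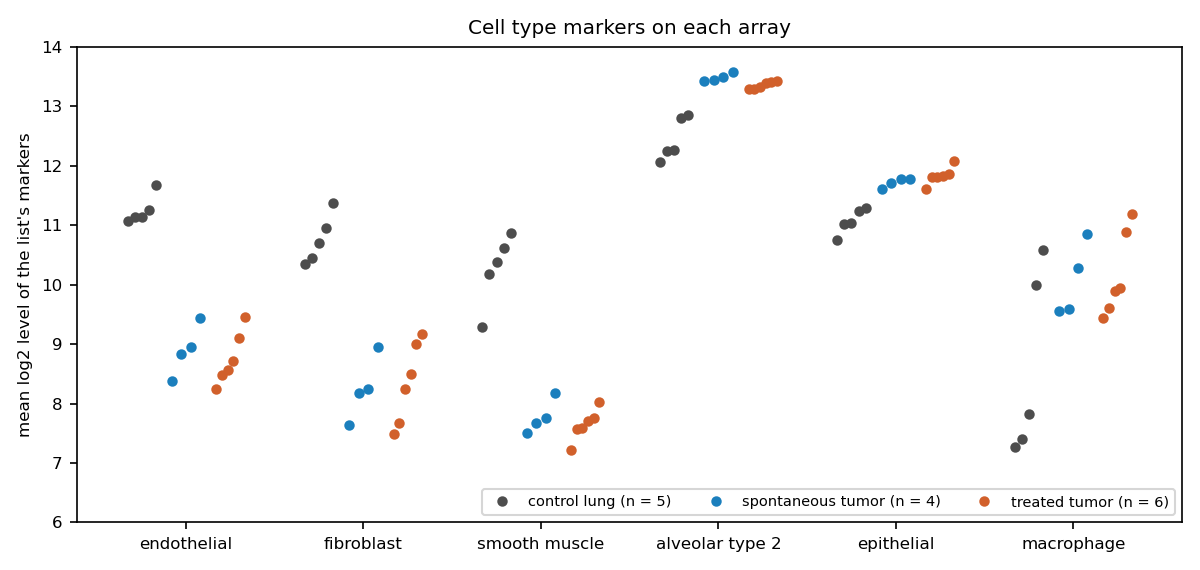
Mean log2 level of the measured markers of 6 cell types on each of the 15 arrays, with 1 point per array. The endothelial, fibroblast and smooth muscle points of both tumor groups lie below all control points, and the alveolar type 2 and epithelial points lie above them.

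Promoter sequence was listed in the RefSeq table (GRCm38.p6) for 27 of the 38 measured members. The 250 bases before the gene start are shown for Gdf10 and Bmp6, which fell in treated tumors, and Bmp4 and Grem1, which rose. They are also shown for the BMP target Id3. Each has 1 listed start. Not every member's promoter was considered. Among those considered, with 1 listed start and a log2 fold change of at least 1 in size, the first 4 have the smallest p in their direction in treated tumors. Some members that are not shown rose with a smaller p. By limma adjusted p, Bambi (1.16e-05) and Tgfbr1 (2.81e-05) came before Bmp4 (5.48e-05) in treated tumors, and Bmp2 (0.00113) came before Grem1 (0.00146). Capitals mark CAGAC, the core of the Smad binding element, on either strand (GTCTG on the other), and GGCGCC, a GC-rich element bound by BMP-activated Smads, which reads the same on both strands. The windows are chr14:33923337-33923586, plus strand, for Gdf10, chr13:38345466-38345715, plus strand, for Bmp6 and chr14:46390670-46390919, minus strand, for Bmp4. Those of Grem1 and Id3 are chr2:113758649-113758898, minus strand, and chr4:136143572-136143821, plus strand.
Gdf10: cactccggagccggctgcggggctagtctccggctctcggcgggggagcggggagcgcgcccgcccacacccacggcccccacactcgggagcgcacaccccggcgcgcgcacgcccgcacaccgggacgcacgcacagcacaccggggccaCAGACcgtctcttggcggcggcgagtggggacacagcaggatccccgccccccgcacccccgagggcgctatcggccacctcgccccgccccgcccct
Bmp6: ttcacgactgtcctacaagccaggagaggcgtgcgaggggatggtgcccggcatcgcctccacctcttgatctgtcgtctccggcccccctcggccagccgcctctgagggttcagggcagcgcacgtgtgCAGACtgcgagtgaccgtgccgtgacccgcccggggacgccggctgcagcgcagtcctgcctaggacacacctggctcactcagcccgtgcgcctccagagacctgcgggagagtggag
Bmp4: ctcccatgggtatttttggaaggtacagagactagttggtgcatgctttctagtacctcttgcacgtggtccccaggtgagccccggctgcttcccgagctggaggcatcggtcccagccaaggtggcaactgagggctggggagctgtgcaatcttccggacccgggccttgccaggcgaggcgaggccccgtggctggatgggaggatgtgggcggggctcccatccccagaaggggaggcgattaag
Grem1: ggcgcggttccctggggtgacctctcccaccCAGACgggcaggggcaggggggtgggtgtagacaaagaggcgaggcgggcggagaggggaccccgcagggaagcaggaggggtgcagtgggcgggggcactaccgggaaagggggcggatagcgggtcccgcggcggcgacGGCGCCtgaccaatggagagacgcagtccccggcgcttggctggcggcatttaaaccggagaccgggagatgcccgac
Id3: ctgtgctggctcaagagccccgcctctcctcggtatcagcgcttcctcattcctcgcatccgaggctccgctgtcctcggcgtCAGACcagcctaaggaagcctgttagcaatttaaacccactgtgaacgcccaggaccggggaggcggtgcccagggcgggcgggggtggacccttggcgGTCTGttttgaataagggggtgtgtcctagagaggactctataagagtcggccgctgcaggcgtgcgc

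Gdf10 held 1 CAGAC, which began 98 bases before the start, Bmp6 held 1 at 119 bases, and Id3 held 2, at 167 and 68 bases. Grem1 held 1 CAGAC at 219 bases and 1 GGCGCC at 78 bases, and Bmp4 held neither. The window of Smad6, which is not shown, also held neither. Of 32851 such windows, 42.2% held CAGAC and 9.59% held GGCGCC. Among the 33 windows listed for the members, 15 and 8 did. A further motif, the E-box CANNTG (any base at N), which also reads as CANNTG on the other strand, was in 66.2% of all windows and in 11 of the 33. These matches describe the letters in the windows and carry no statement on binding.

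Among the ligands, BMP family members moved apart from each other. Gdf10, a BMP3-related growth factor, read 7.07, 8.49, 8.19, 8.38 and 8.94 in control lung and 4.69, 4.91, 4.25 and 4.77 in spontaneous tumors. In the 6 treated tumors it lay between 4.35 and 5.28, with a median of 4.61. Neither tumor group overlapped the controls, and the fall was -3.56 ± 0.29 [-2.25] in spontaneous and -3.50 ± 0.26 [-3.24] in treated tumors (limma adjusted p = 6.86e-07 and 1.67e-07). Bmp6, known for setting hepcidin in the liver and made by endothelial cells among others, read 10.79, 9.58, 11.78, 11.14 and 10.62 in control lung and 6.13, 6.25, 6.59 and 6.55 in spontaneous tumors. Treated tumors lay between 5.93 and 8.05, with a median of 6.80. All tumors were again below all controls, at -4.40 ± 0.42 [-3.16] and -3.92 ± 0.38 [-3.06], which is 21.1-fold and 15.2-fold lower (limma adjusted p = 2.53e-06 and 1.79e-06). These were the largest falls among the members in the 15 arrays.

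Bmp4, the branching signal of the embryonic lung, was higher in tumors. It read 9.23, 9.69, 9.58, 9.95 and 9.75 in control lung and 10.63, 10.72, 10.76 and 11.25 in spontaneous tumors, and 10.59 to 11.61 with a median of 10.87 in treated tumors. No tumor array reached down to the controls, and the rise was 1.20 ± 0.20 [0.46] and 1.29 ± 0.18 [2.06] (limma adjusted p = 0.000363 and 5.48e-05). Bmp2, its closest relative, read 5.21, 5.68, 6.00, 4.80 and 5.49 in control lung and 7.08, 6.31, 6.90 and 8.53 in spontaneous tumors. In treated tumors it lay between 6.19 and 8.23, with a median of 7.38. The groups did not overlap, and Bmp2 rose by 1.77 ± 0.42 [1.40] and 1.90 ± 0.38 [1.77], or 3.40-fold and 3.73-fold (limma adjusted p = 0.00505 and 0.00113). Of the other BMPs, Bmp7 fell in spontaneous tumors, at -0.60 ± 0.17 [0.056] (adjusted p = 0.0154), with 2 further probe sets at -0.041 and 0.084, and was at -0.41 ± 0.16 [-0.63] in treated tumors. Bmp5 passed in neither comparison, at 0.094 ± 0.37 [-0.40] and -0.43 ± 0.33 [0.064].

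The 3 TGF-beta ligands also differed in direction. Tgfb1, the main TGF-beta of inflamed and wounded tissue, read 7.13, 8.15, 8.02, 7.43 and 8.33 in control lung, 8.32, 9.18, 8.86 and 8.56 in spontaneous tumors and 8.16 to 8.71 with a median of 8.44 in treated tumors. Tumor values were at the upper end of the controls or above, with overlap in both groups, and the rise was 0.92 ± 0.23 [0.52] and 0.61 ± 0.21 [0.85] (limma adjusted p = 0.00713 and 0.0311). A dimmer probe set of Tgfb1 was at -0.22 ± 0.16 and -0.31 ± 0.14 and passed in neither. The mean level of macrophage markers, cells that make Tgfb1, was 7.27, 9.99, 7.82, 7.40 and 10.58 on the same control arrays and 9.44 to 11.18 in tumors, and 2 of 6 of these markers (Siglecf and Chil3) rose in each comparison. Their part in the Tgfb1 values was not tested.

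Tgfb2 read 8.89, 9.48, 9.58, 9.67 and 9.66 in control lung and 8.28, 8.75, 9.14 and 8.07 in spontaneous tumors, and 8.06 to 8.80 with a median of 8.36 in treated tumors. All treated values were below the controls, and 1 spontaneous tumor overlapped them. It fell, at -0.90 ± 0.22 [-0.74] and -1.07 ± 0.20 [-0.62] (limma adjusted p = 0.00581 and 0.000581), and its 3 other probe sets had log2 fold changes of -0.49 to -0.76. Tgfb3, a TGF-beta of mesenchymal cells, read 8.24, 7.93, 8.08, 8.42 and 8.74 in control lung and 6.77, 7.70, 7.49 and 7.12 in spontaneous tumors. Treated tumors ran from 6.85 to 8.97 with a median of 7.12, where treated 4 alone was above every control. Tgfb3 fell in spontaneous tumors, at -1.01 ± 0.36 [-0.51] (adjusted p = 0.0410) and was at -0.83 ± 0.32 [-0.35] in treated tumors (adjusted p = 0.0551).

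Of the activin subunits, Inhbb, the beta B chain of activin B and inhibin B, read 8.99, 9.52, 8.91, 9.88 and 9.27 in control lung and 10.20, 10.77, 10.74 and 10.90 in spontaneous tumors. Treated tumors lay between 9.80 and 11.38, with a median of 10.22. Spontaneous tumors were above all controls, and 1 treated tumor overlapped them. Inhbb rose by 1.34 ± 0.28 [0.45] and 1.06 ± 0.25 [1.18] (limma adjusted p = 0.00185 and 0.00362), and its other probe set by 1.06 ± 0.19 and 0.97 ± 0.17. Inhba, the beta A chain, did not pass, at 0.34 ± 0.43 [0.36] and 0.64 ± 0.39 [0.64], and ran from 6.10 to 8.43 among tumors against 6.04 to 6.83 in control lung.

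**Figure D3:**
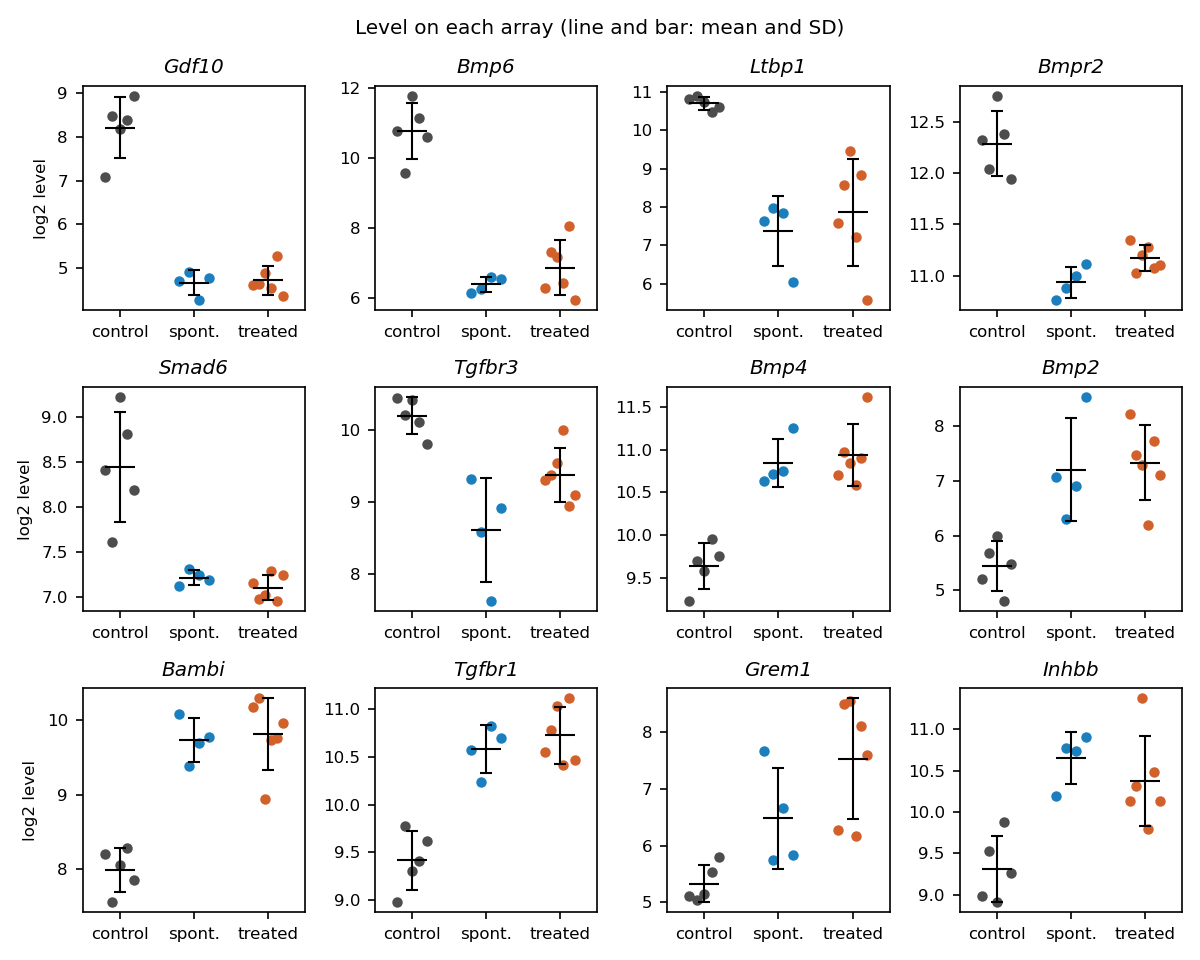
Log2 level of 12 members on each of the 15 arrays, control lung in grey, spontaneous tumors in blue and treated tumors in orange, with the mean and SD as line and bar (n = 5, 4 and 6). Gdf10, Bmp6, Ltbp1, Bmpr2 and Smad6 are lower on every tumor array than on any control array, and Bmp4, Bmp2, Bambi, Tgfbr1 are higher on every tumor array.

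The receptors split as well, with the TGF-beta type I receptor Tgfbr1 higher and the BMP receptors Bmpr2 and Bmpr1b lower. Tgfbr1, the kinase that phosphorylates Smad2 and Smad3, read 8.98, 9.78, 9.30, 9.41 and 9.62 in control lung, 10.57, 10.23, 10.82 and 10.70 in spontaneous tumors and 10.41 to 11.11 with a median of 10.66 in treated tumors. All tumor values were above all controls, and it rose by 1.17 ± 0.19 [1.56] and 1.31 ± 0.17 [1.66] (limma adjusted p = 0.000266 and 2.81e-05). Both its other probe sets rose in both comparisons as well. Tgfbr2, the partner receptor that binds the ligand, passed in neither comparison, at -0.43 ± 0.25 [-0.74] and -0.19 ± 0.23 [0.73]. Tgfbr3, betaglycan, a co-receptor that presents Tgfb2, read 10.44, 10.20, 10.41, 10.10 and 9.81 in control lung and 9.31, 8.58, 7.63 and 8.91 in spontaneous tumors, and 8.94 to 9.99 with a median of 9.33 in treated tumors. It fell, at -1.58 ± 0.28 [-1.85] in spontaneous tumors, without overlap, and at -0.82 ± 0.26 [-0.45] in treated tumors, with 1 value among the controls (limma adjusted p = 0.000604 and 0.0191).

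Bmpr2, the type II BMP receptor whose loss in humans underlies heritable pulmonary arterial hypertension, read 12.33, 12.04, 12.75, 12.38 and 11.94 in control lung and 10.76, 10.88, 10.99 and 11.11 in spontaneous tumors. Treated tumors lay between 11.02 and 11.35, with a median of 11.15, a narrow range below every control. Bmpr2 fell, at -1.35 ± 0.15 [-1.55] and -1.11 ± 0.13 [-0.39] (limma adjusted p = 8.23e-06 and 1.32e-05), and its other probe sets fell with values of -1.22 to -1.93. Bmpr1b, a type I BMP receptor, read 6.92, 6.10, 6.59, 6.98 and 6.29 in control lung and 4.94, 5.46, 5.17 and 5.91 in spontaneous tumors, and 4.55 to 5.44 with a median of 5.01 in treated tumors. Tumors and controls did not overlap, and it fell, at -1.20 ± 0.24 [-1.23] and -1.59 ± 0.22 [-1.59] (limma adjusted p = 0.00140 and 4.38e-05). Its 2 other probe sets fell by more, with log2 fold changes of -2.11 to -2.73. The related Bmpr1a, the widely expressed type I BMP receptor, was at 0.21 ± 0.14 [0.46] in spontaneous and rose by 0.35 ± 0.13 [1.35] in treated tumors (adjusted p = 0.0449). All its 5 dimmer probe sets were also higher in tumors, by 0.33 to 0.66 in spontaneous and 0.42 to 0.80 in treated tumors, and 3 of them passed in spontaneous and 4 in treated tumors in a limma fit over probe sets in place of genes. The receptor genes Acvr1 and Acvr2a passed in neither, with log2 fold changes of -0.10 to 0.33. In the fit over probe sets a dimmer probe set of Acvr1 rose by 0.47 ± 0.15 in treated tumors (limma adjusted p = 0.0232).

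Bambi, a decoy receptor without a kinase domain that dampens TGF-beta and BMP signals, read 8.21, 7.56, 8.05, 8.28 and 7.86 in control lung and 10.08, 9.38, 9.69 and 9.77 in spontaneous tumors. Treated tumors lay between 8.95 and 10.29, with a median of 9.86. Every tumor was above every control, and Bambi rose by 1.74 ± 0.24 [0.54] and 1.82 ± 0.22 [1.98], or 3.34-fold and 3.53-fold (limma adjusted p = 6.37e-05 and 1.16e-05). Over 18 arrays its adjusted p was 0.82 and 0.11.

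Among the secreted antagonists, Grem1, gremlin, which binds BMP2, BMP4 and BMP7, differed widely between tumors. It read 5.11, 5.05, 5.15, 5.54 and 5.80 in control lung, 7.66, 5.75, 6.66 and 5.84 in spontaneous tumors and 6.28, 8.49, 8.54, 6.17, 8.10 and 7.60 in treated tumors 1 to 6. All treated tumors were above all controls, treated 1 and treated 4 by the least, while 1 spontaneous tumor lay within the control range. Grem1 rose by 2.20 ± 0.46 [1.78], or 4.60-fold, in treated tumors (limma adjusted p = 0.00146), and was at 1.15 ± 0.51 [0.88] in spontaneous tumors (adjusted p = 0.0970).

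Fst, follistatin, which binds activins, read 6.24, 7.24, 6.28, 6.30 and 7.10 in control lung, 7.06, 8.58, 8.93 and 7.10 in spontaneous tumors and 6.64 to 8.47 with a median of 7.56 in treated tumors. Tumors and controls overlapped, with spontaneous 2 and spontaneous 3 the highest. It rose in spontaneous tumors by 1.29 ± 0.42 [1.04] (adjusted p = 0.0288) and was at 0.91 ± 0.38 [0.76] in treated tumors (adjusted p = 0.0720), while its other probe set rose in both, by 2.53 ± 0.60 and 2.05 ± 0.54. Nbl1, or DAN, a BMP antagonist related to gremlin, read 8.57, 9.51, 8.35, 8.85 and 9.15 in control lung and 7.17, 8.39, 8.20 and 7.22 in spontaneous tumors, and 7.07 to 8.42 with a median of 7.48 in treated tumors. In each tumor group 1 value reached into the controls, and Nbl1 fell, at -1.14 ± 0.32 [-0.63] and -1.31 ± 0.29 [-0.91] (limma adjusted p = 0.0122 and 0.00207). The BMP antagonists Nog (noggin), Chrd (chordin) and Fstl1 passed in neither, with log2 fold changes of -0.24 to 0.28. The mean levels of Nog and Chrd were below the median level of all genes.

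Ltbp1 and Ltbp2 were listed as latency proteins. Ltbp1, which holds secreted TGF-beta in the matrix, read 10.81, 10.88, 10.73, 10.47 and 10.60 in control lung and 7.63, 7.98, 7.84 and 6.03 in spontaneous tumors. In treated tumors 1 to 6 it read 7.57, 8.56, 9.45, 7.21, 8.82 and 5.57. The controls lay within a narrow band, all tumors lay below it, and the tumors differed widely among themselves. Ltbp1 fell, at -3.33 ± 0.61 [-2.42] and -2.83 ± 0.55 [-2.24], which is 10.0-fold and 7.13-fold lower (limma adjusted p = 0.000727 and 0.000841, and 0.058 and 0.059 over 18 arrays). Its dimmer probe sets had smaller changes, of -0.42 to -1.30. The mean level of fibroblast markers on the treated arrays was 8.49, 9.01, 9.16, 7.67, 8.24 and 7.49. Like Ltbp1, it was highest on treated 3 and lowest on treated 6. The mean of the endothelial markers was also highest on treated 3 (9.46) and lowest on treated 6 (8.24). That of the smooth muscle markers was highest on treated 5 (8.03) and lowest on treated 4 (7.23). The macrophage and mesothelial means were highest on treated 3 (11.18 and 6.17) and lowest on treated 5 (9.44 and 4.82). Among the spontaneous arrays, Ltbp1 and the fibroblast mean (7.64) were lowest on spontaneous 4, and the endothelial mean on spontaneous 1 (8.38). The part of these cell types in the Ltbp1 values was not tested. Ltbp2, a relative that binds elastic fibres, passed in neither comparison, at 0.27 ± 0.45 [0.0077] and 0.15 ± 0.41 [0.65], and ran from 8.44 to 10.67.

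The Smads that carry the signal changed little. Smad1, which transmits BMP signals, rose by 0.47 ± 0.15 [0.10] and 0.47 ± 0.14 [1.30] (limma adjusted p = 0.0281 and 0.0128). A probe set of Smad1 with nearly the same mean level passed in neither, at 0.071 ± 0.16 and 0.14 ± 0.14. Smad2 rose by 0.49 ± 0.14 [0.82] and Smad3 by 0.40 ± 0.14 [0.63] in treated tumors (adjusted p = 0.0105 and 0.0308), and they were at 0.40 ± 0.15 [-0.34] and -0.015 ± 0.15 [-0.80] in spontaneous tumors. The other probe sets of Smad3 were at 0.50 and 0.68 in treated tumors. The shared partner Smad4 and the BMP Smads Smad5 and Smad9 passed in neither, with log2 fold changes of -0.36 to 0.16. In the fit over probe sets, a slightly dimmer probe set of Smad4 fell in spontaneous tumors, at -0.30 ± 0.10 (limma adjusted p = 0.0368). It was at -0.14 ± 0.094 in treated tumors.

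The inhibitory Smad6, a BMP target that blocks BMP receptors, was lower. It read 8.41, 7.61, 9.23, 8.81 and 8.19 in control lung and 7.11, 7.31, 7.24 and 7.19 in spontaneous tumors, and 6.95 to 7.28 with a median of 7.09 in treated tumors. The tumor values formed a narrow band below the spread-out controls, and Smad6 fell, at -1.24 ± 0.23 [-1.20] and -1.35 ± 0.21 [-1.33] (limma adjusted p = 0.000915 and 0.000139). Smad7, which blocks TGF-beta receptors, fell, at -0.71 ± 0.22 [-0.37] in spontaneous tumors (adjusted p = 0.0224) and was at -0.39 ± 0.20 [-0.11] in treated tumors.

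Id1 and Id3, inhibitors of DNA binding and immediate targets of BMP Smads, moved in opposite directions. Id1 read 8.65, 8.71, 9.05, 8.52 and 8.74 in control lung, 9.63, 9.25, 9.39 and 10.39 in spontaneous tumors and 9.13 to 10.63 with a median of 9.71 in treated tumors. Id3 read 10.28, 10.45, 10.79, 10.26 and 10.41 in control lung, 9.53, 10.19, 10.03 and 9.87 in spontaneous tumors and 9.36 to 10.17 with a median of 9.76 in treated tumors. Neither gene's tumor values overlapped its controls. Id1 rose by 0.93 ± 0.28 [0.13] and 0.99 ± 0.25 [0.93] (limma adjusted p = 0.0176 and 0.00544), and Id3 fell, at -0.53 ± 0.18 [-0.60] and -0.69 ± 0.16 [-0.27] (limma adjusted p = 0.0345 and 0.00377).

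Groups of tumor and control did not overlap for 17 members in spontaneous tumors, 7 higher and 10 lower, or 44.7% of the members, where 29.3% of all genes did not overlap (17.8% higher and 11.4% lower). In treated tumors this held for 15 members, 7 higher and 8 lower, or 39.5%, where it held for 24.5% of all genes (14.4% higher and 10.1% lower). For 12 members tumor and control arrays did not overlap in both comparisons, which use the same control arrays. The share of all genes for which this holds was not computed. With a log2 fold change of at least 1 in size besides the adjusted p, 15 members were called in spontaneous and 14 in treated tumors, where 13.3% and 14.2% of all genes were called.

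The other genes of the pathway, 86 listed and 78 measured, were called in both directions. In spontaneous tumors limma called 29 of them, 14 higher and 15 lower, or 37.2% against 33.0% of all genes. In treated tumors it called 37, 18 higher and 19 lower, or 47.4% against 38.8%. Over all 18 arrays it called 3 in spontaneous tumors (Chrdl1, Id4 and Tagln), where 4.16% of all genes were called, and 6 in treated tumors (Ltbp4, Bmp1, Chrdl1, Tmeff1, Id2 and Id4), where 7.42% were. The other pathway genes named below were called in the 15 arrays and not in the 18. The median log2 fold change of these 78 genes was 0.046 and 0.079. Of 11 other receptors and co-receptors, 1 rose and 3 fell in spontaneous tumors (36.4%), and 1 rose and 4 fell in treated tumors (45.5%). Acvrl1, the BMP receptor of endothelial cells, fell, at -3.10 ± 0.23 [-2.34] and -3.25 ± 0.20 [-2.31], and its co-receptor endoglin, Eng, at -1.87 ± 0.30 [-1.75] and -2.04 ± 0.27 [-1.48] (limma adjusted p over 18 arrays 0.0846 and 0.0612 for Acvrl1, 0.0969 and 0.134 for Eng). Hey1, a transcriptional repressor of vessel cells and target of this receptor, fell, at -2.35 ± 0.25 [-1.70] and -2.43 ± 0.22 [-1.42]. The endothelial markers Cdh5 and Tek fell on the same arrays, at -2.46 and -3.36 in spontaneous and at -2.49 and -3.55 in treated tumors.

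Of 14 other secreted or membrane-bound antagonists, 1 rose and 6 fell in each comparison (50.0%). Of all genes 33.0% were called in spontaneous and 38.8% in treated tumors. Chrdl1, a chordin-like BMP antagonist, fell, at -3.67 ± 0.22 [-2.58] and -3.71 ± 0.20 [-3.51] (limma adjusted p = 4.71e-08 and 1.02e-08), and Crim1, a membrane protein that tethers BMPs, at -1.91 ± 0.30 [-1.58] and -1.79 ± 0.27 [-1.20]. Of 15 intracellular regulators, 7 rose and 1 fell in spontaneous tumors (53.3%), and 9 rose and 1 fell in treated tumors (66.7%). Tgif1, a corepressor of Smad2 and Smad3, rose by 1.22 ± 0.14 [1.23] and 1.60 ± 0.13 [1.83], and Pmepa1, a TGF-beta target that restrains the pathway, by 1.02 ± 0.15 [0.48] and 0.46 ± 0.14 [0.92].

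Of 13 other target genes, 1 rose and 4 fell in spontaneous tumors (38.5%), and 3 rose and 4 fell in treated tumors (53.8%). Of all genes 33.0% and 38.8% were called. Id2 rose by 2.43 ± 0.31 [1.94] and 2.55 ± 0.28 [2.90], and Id4 fell, at -1.78 ± 0.33 [-1.42] and -2.13 ± 0.30 [-2.06], so the 4 Id genes comprised 2 that rose and 2 that fell in each tumor group. Tagln, a TGF-beta target that is also a smooth muscle marker here, fell, at -2.24 ± 0.29 [-2.57] and -2.31 ± 0.26 [-1.75]. Of 9 latency and activation genes, 2 rose and 1 fell in spontaneous (33.3%) and 3 rose and 2 fell in treated tumors (55.6%). Ltbp4, a latency protein of elastic fibres, fell, at -1.89 ± 0.19 [-1.18] and -2.56 ± 0.17 [-1.99], and the metalloprotease gene Bmp1 rose by 1.09 ± 0.18 [0.82] and 0.96 ± 0.16 [1.00]. Of 16 other ligands, few passed. There, 2 rose in spontaneous tumors (12.5%), and 1 rose and 2 fell in treated tumors (18.8%).

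**Figure D4:**
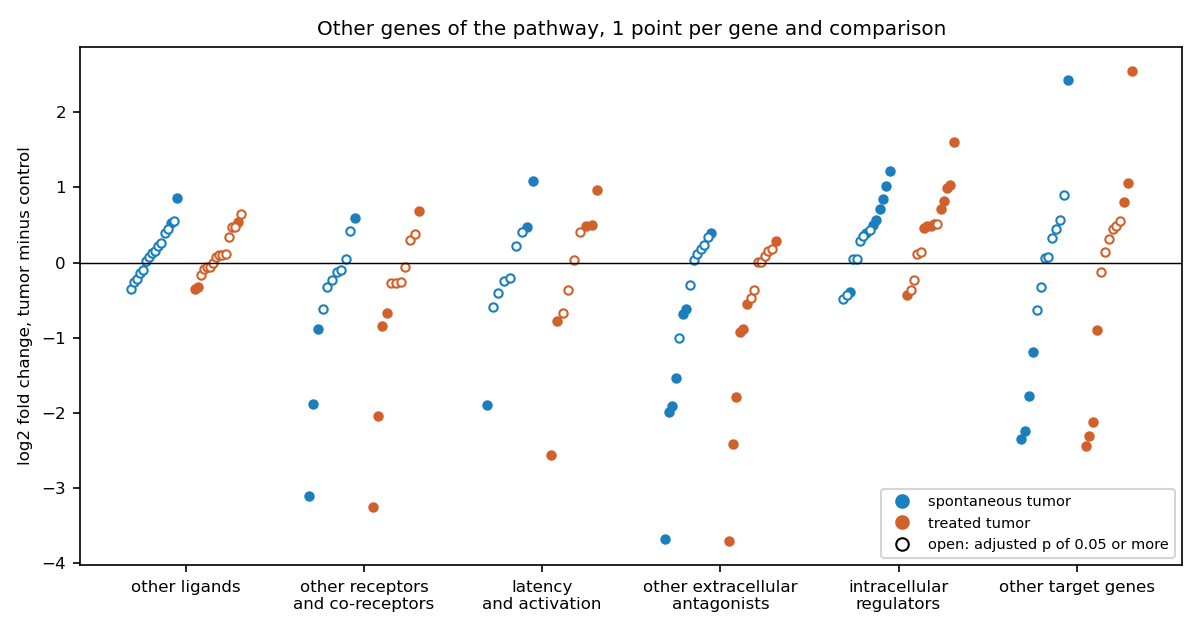
Log2 fold change of the 78 other pathway genes, 1 point per gene, in spontaneous (blue) and treated (orange) tumors against control lung, ordered by value within each of 6 lists. Filled points have a limma adjusted p under 0.05; most filled receptor and antagonist points lie below 0, and most filled points of the intracellular regulators lie above it.

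Treated and spontaneous tumors were compared directly to test whether the tumors of exposed mice differ in these genes. By limma 0 of 38 members passed, where 0.0550% of all genes did, and 3 members had an unadjusted p under 0.05, where 8.64% of all genes did. These 3 were Tgfbr3 at 0.77 ± 0.27, Smad3 at 0.41 ± 0.14 and Grem1 at 1.05 ± 0.49, each higher in treated tumors, with adjusted p = 0.431, 0.428 and 0.575. Smad3 was the only member whose tumor groups did not overlap, at 9.98 to 10.21 in spontaneous and 10.26 to 10.89 in treated tumors, where 1.63% of all genes did not overlap. Thus the 8 members called in only 1 of the comparisons with control were not shown to differ between the tumor groups. The 95% interval of the difference lay within 1 log2 unit on either side of 0 for 30 of the 38 members. It was -0.31 to 0.51 for Bmp4, -0.41 to 0.57 for Bambi and -0.55 to 0.66 for Gdf10. For Grem1 and Ltbp1 it was wide, at 0.0084 to 2.10 and -0.75 to 1.74, and the number of arrays limits what can be said of these genes.

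**Figure D5:**
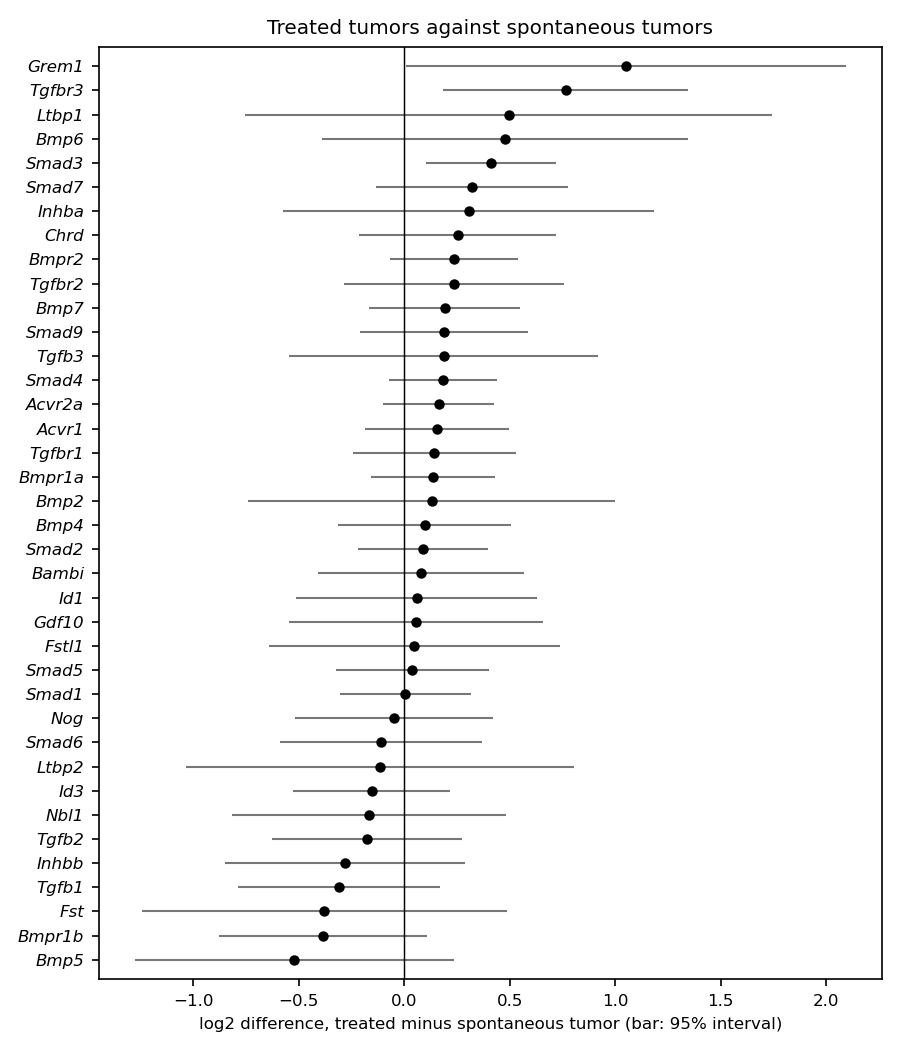
Log2 difference of treated minus spontaneous tumors for the 38 members, ordered by size, with the 95% interval from limma as the bar (n = 6 and 4). The intervals of Tgfbr3, Smad3 and Grem1 alone lie wholly above 0, and their adjusted p was 0.431, 0.428 and 0.575.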

How the data were processed

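RNA of control lung and of spontaneous and treated lung tumors was hybridised to Affymetrix arrays, 6 per group. The deposited values are log2 intensities per probe set, made by the authors with RMA, per the submitters' processing notes; the version is not given in the sources used here. RMA sets all arrays to a common distribution, so a change shared by all genes cannot be seen, and levels of different probe sets cannot be set against each other. Each of 18193 genes was represented by its probe set with the highest mean among those with that symbol alone. The 3 groups were fitted together in limma 3.58.1 with lmFit and eBayes, without covariates, and p-values were adjusted by Benjamini-Hochberg over all genes. The fit was tested on simulated data. Members, gene lists and the choice of arrays left out were made with earlier results of these data known. Values per array are given for members called with a log2 fold change of at least 1 in size, and up to 4 genes by smallest p were named from each other pathway list. Alternatives were all 18 arrays, array weights, a fold rule, another probe set or level filter, centring, an actin covariate, a replicate block and leaving out each array.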

Additional observations from a re-analysis of the deposited data

Results flagged for a closer look

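In 6 of 114 groups of arrays (38 members in 3 groups each) a lone array lay far from the others of its group. Chance flags about 1 in 20 groups. Tgfb2 read 8.89 in control 1 against 9.48 to 9.67 in the other controls. Chrd read 6.35 in control 6 against 5.66 to 5.79, and Inhba 6.04 in control 3 against 6.67 to 6.83. Inhba read 8.43 in spontaneous 3 against 6.37 to 6.47 in the other spontaneous tumors. Bmp4 read 11.61 in treated 6 against 10.59 to 10.97, and Bmp5 8.69 in treated 4 against 10.24 to 10.99 in the other treated tumors.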

How the results depend on the processing

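The arrays left out decide most calls. Over all 18 arrays limma called 5 members in spontaneous and 7 in treated tumors in place of 22 and 22, and Bmp7 in spontaneous tumors turned from -0.60 to 0.056 (adjusted p = 0.976). With array weights on the 18 arrays 24 and 24 were called. A required log2 fold change of at least 1 in size left 15 and 14. Leaving out each array in turn gave 17 to 22 calls in spontaneous and 19 to 23 in treated tumors, and 0 to 0 between the tumor groups. Of the 22 calls, 15 and 19 passed under every array left out. Those lost were Bmp7, Fst, Id1, Id3, Smad1, Smad7 and Tgfb3 in spontaneous and Bmpr1a, Smad3 and Tgfb1 in treated tumors, and the cause was not tested. Deviations from the group means correlated at -0.15 to 0.30 between same-numbered arrays of different groups. Between arrays of other numbers it was -0.35 to 0.37. These values showed no pairing by number but cannot exclude one. With the replicate number as a block 20 and 21 members were called. With the actin difference as a covariate 18 and 23 were called, and with dim genes left out 17 and 18 of the 27 members tested. Other scaling, probe set, variance and sample settings gave 20 to 24 calls. Of all these settings, the share of all genes called was computed only for the 18 arrays without weights and for the fold rule. Whether the other counts moved with those of all genes was not tested. The number of arrays and the unknown detection limit bound the precision for dim members.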
